A study of Mus musculus with 6 samples.

Results

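Interferon-responding cells were chosen by their own counts: a cell barcode was kept with at least 1000 genes detected and at most 10% mitochondrial UMIs (molecular tags, so that 1 UMI stands for 1 RNA molecule), and was a member with at least 1 UMI in 4 or more of 7 genes, Isg15, Oasl2, Ifit1, Ifit3, Rtp4, Usp18 and Bst2. Of 16225 kept cells, 603 were members. The libraries came from embryoid bodies, floating aggregates of differentiating cells, grown from mouse embryonic stem cells for 6 days towards motor neurons and sequenced cell by cell in droplets from the 3' ends of transcripts. The parental line carries HB9::GFP, a fluorescent reporter that is switched on in motor neurons. There were 2 KO libraries (lncMN2-/-), 2 DeltaSP libraries (lncMN2_SP-/-) and 2 WT libraries (wild type), each genotype represented by 2 clones, and both mutants were made with CRISPR/Cas9 at the lncMN2 locus. All groups share the reporter line and the stage. The labels name the 10x V3.1 kit for every library, whereas the series' design text names V3, and no interferon or other immune treatment is named in the labels. Because each library is 1 clone, clone, library preparation and genotype cannot be told apart within a single library.

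Type I interferons are secreted proteins that cells make after sensing foreign or misplaced nucleic acid. They bind the receptor formed by Ifnar1 and Ifnar2, and transcription factors downstream of it, Stat2 and Irf9 among them, then switch on a large set of interferon-stimulated genes whose products block viral replication, raise antigen presentation and feed back on the pathway. In embryonic stem cells this pathway is known to be weak, and it gains strength as cells differentiate.

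The 7 genes of the rule are all products of this response. Isg15 is a ubiquitin-like modifier, Usp18 removes it from proteins and also damps receptor signalling, Oasl2 belongs to the oligoadenylate synthetase family, Ifit1 and Ifit3 bind foreign RNA or support that binding, Bst2 (tetherin) holds budding virus at the cell surface, and Rtp4 is an interferon-induced transmembrane protein. Many such genes carry an interferon-stimulated response element before their start, a site built from a repeated GAAA. The promoters of Isg15, Ifit1, Ifit3, Bst2 and Oasl2 are shown because these genes define the cells, and that of B2m, the light chain of MHC class I, because it rose in them without being in the rule. The sequences are RefSeq windows of GRCm38.p6, 250 bases before to 50 after the gene's start, with matches to a motif of GAAA, any 2 bases and GAAA in capitals, or TTTC, any 2 bases and TTTC where the match is on the other strand.
Isg15: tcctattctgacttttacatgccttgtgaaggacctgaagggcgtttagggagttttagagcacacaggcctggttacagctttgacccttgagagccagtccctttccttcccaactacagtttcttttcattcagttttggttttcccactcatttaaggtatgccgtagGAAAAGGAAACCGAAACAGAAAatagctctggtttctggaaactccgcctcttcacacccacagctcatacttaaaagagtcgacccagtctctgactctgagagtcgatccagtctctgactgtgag
Ifit1: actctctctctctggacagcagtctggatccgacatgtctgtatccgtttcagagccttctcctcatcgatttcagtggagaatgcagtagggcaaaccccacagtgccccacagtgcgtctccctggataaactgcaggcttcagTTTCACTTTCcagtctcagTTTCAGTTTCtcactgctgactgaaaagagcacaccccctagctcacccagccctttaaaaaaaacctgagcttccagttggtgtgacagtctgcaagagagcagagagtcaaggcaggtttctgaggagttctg
Ifit3: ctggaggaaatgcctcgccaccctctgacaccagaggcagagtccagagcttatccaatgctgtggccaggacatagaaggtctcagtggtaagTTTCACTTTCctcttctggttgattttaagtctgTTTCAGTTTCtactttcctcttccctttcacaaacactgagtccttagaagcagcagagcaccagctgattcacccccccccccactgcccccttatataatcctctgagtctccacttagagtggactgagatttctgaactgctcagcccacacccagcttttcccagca
Bst2: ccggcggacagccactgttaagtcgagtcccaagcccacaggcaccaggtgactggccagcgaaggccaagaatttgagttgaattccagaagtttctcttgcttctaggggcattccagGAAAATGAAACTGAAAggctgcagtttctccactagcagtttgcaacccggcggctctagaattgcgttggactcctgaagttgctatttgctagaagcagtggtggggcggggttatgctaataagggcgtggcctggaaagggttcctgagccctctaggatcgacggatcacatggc
Oasl2: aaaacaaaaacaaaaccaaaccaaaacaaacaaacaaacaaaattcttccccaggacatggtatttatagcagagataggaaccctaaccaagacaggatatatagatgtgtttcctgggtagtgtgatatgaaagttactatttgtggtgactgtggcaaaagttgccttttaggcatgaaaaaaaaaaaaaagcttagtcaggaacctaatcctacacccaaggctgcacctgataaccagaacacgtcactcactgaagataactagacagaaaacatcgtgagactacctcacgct
B2m: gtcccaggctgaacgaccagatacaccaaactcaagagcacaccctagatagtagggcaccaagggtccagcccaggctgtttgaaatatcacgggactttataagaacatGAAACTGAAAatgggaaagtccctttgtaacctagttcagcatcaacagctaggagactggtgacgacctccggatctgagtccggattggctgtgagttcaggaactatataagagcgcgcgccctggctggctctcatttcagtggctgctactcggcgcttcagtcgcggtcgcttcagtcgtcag
The windows lie at chr4:156200769-156201068 for Isg15 (minus strand), chr19:34640639-34640938 for Ifit1 (plus strand), chr19:34583279-34583578 for Ifit3 (plus strand), chr8:71537423-71537722 for Bst2 (minus strand), chr5:114896684-114896983 for Oasl2 (plus strand) and chr2:122147437-122147736 for B2m (plus strand). Isg15 held 3 overlapping matches, Ifit1, Ifit3 and Bst2 had 2 matches each (overlapping in Bst2), B2m had 1, and the Oasl2 window had none of these letters. Of 27025 genes with a window, 1079 (3.99%) held a match. Among the gene lists a match was found for 10 of 10 interferon-inducible GTPases with a window and 27 of 61 antiviral effectors (44.3%). It was found for 5 of 19 MHC class I genes (26.3%), 2 of 16 signalling genes (12.5%) and 0 of 10 pan-neuronal genes. Shares in the remaining interferon lists were 11 of 19 ligands, 2 of 7 Ifitm genes, 2 of 14 sensors and 1 of 11 NF-kB targets and chemokines. No match was found for 5 receptors, 4 MHC class II genes and 3 ISG15 conjugation genes with a window. A match is a description of the sequence and was not tied to binding in these cells.

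The cells were found almost entirely in the edited libraries. They made up 31 of 2129 kept cells (1.46%) in KO 1 and 83 of 2100 (3.95%) in KO 2, 246 of 2283 (10.8%) in DeltaSP 1 and 241 of 3602 (6.69%) in DeltaSP 2, against 1 of 4499 (0.0222%) in WT 1 and 1 of 1612 (0.0620%) in WT 2. No edited library overlapped a WT library, and no KO library overlapped a DeltaSP library. The exact 95% binomial intervals, which cover counting error only, ran from 0.991% to 2.06% in KO 1, 3.16% to 4.88% in KO 2, 9.53% to 12.1% in DeltaSP 1, 5.90% to 7.56% in DeltaSP 2, and up to 0.124% in WT 1 and 0.345% in WT 2. The mean was 2.70% ± 1.77 in KO, 8.73% ± 2.89 in DeltaSP and 0.0421% ± 0.0281 in WT (SD, n = 2 libraries each). KO exceeded WT by 2.66 points and DeltaSP exceeded WT by 8.69, while KO minus DeltaSP was -6.03 points. The exact permutation test (two-sided, libraries as units) returned p = 0.333 for all 3 differences, which is the smallest value possible with 2 libraries on each side, so none could pass after adjustment.

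Depth differed between the libraries. WT 1 stood apart, where kept cells had a median depth of 4157 UMIs, and the other libraries 11899 to 15112. When each cell was thinned to 3000 UMIs, which left out 936 shallower cells of WT 1 and 56 to 201 in the other libraries, 5 cells of KO 1, 22 of KO 2, 70 of DeltaSP 1 and 86 of DeltaSP 2 met the rule, against 0 in both WT libraries. The order of the genotypes did not change, and the differences shrank to 0.671 points for KO minus WT and 2.87 for DeltaSP minus WT. In the edited libraries members were deeper than other cells, with medians of 15119 to 17032 UMIs against 11757 to 14035, while the median mitochondrial share was 3.26% to 4.38% against 3.23% to 4.60%. Members with more than 2 times the library's median UMIs were 15.4% to 22.6% of members in these libraries, against 5.99% to 9.10% of other cells. No doublet caller was run, and the part of depth and doublets in membership was not tested.

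**Figure D1:**
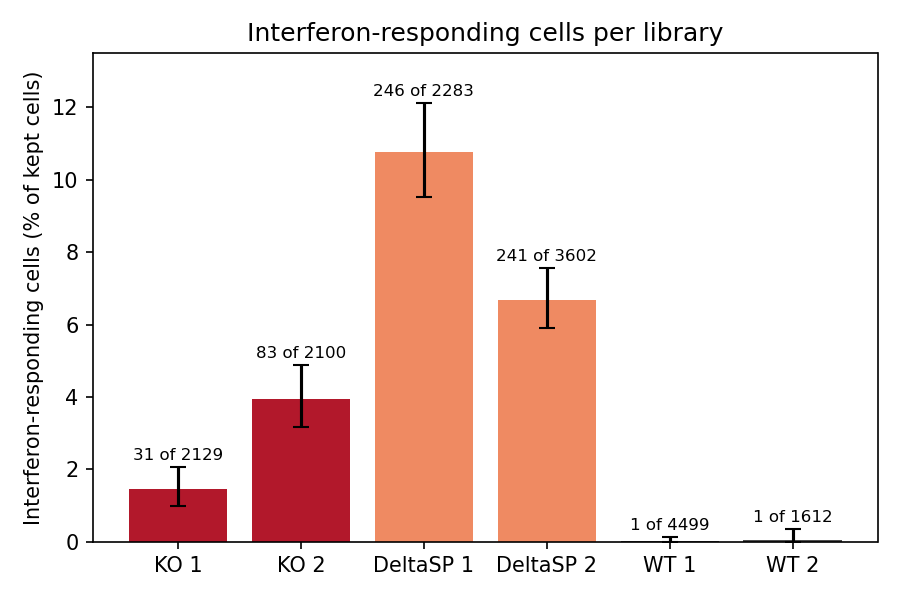
Percent of kept cells that were interferon-responding in each library, with exact 95% binomial intervals and the counts above the bars. The KO libraries stand at 1.46% and 3.95%, the DeltaSP libraries at 10.8% and 6.69%, and each WT library holds 1 such cell.

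The 7 genes chose the cells, so their levels are given without a test. Levels are CPM, UMIs of a gene per 1000000 UMIs summed over the cells named. Isg15 stood at 218 and 272 CPM in members of KO 1 and KO 2 and at 448 and 480 in members of DeltaSP 1 and DeltaSP 2. In the other cells it was at 2.37 and 6.28 CPM in KO, 12.9 and 14.2 in DeltaSP, and 2.76 and 1.33 in WT. Oasl2 stood at 136 and 166 CPM in KO members and 210 and 180 in DeltaSP members, against 1.52 to 5.44 in the other cells of those libraries. The selection itself sets this gap in each library. Rtp4 was detected in 549 of the 603 members (91.0%), Bst2 in 578 (95.9%), Oasl2 in 509 (84.4%), Usp18 in 498 (82.6%) and Isg15 in 475 (78.8%), while Ifit3 was detected in 106 (17.6%). Among other cells of all libraries the shares were 5.27% for Rtp4, 12.3% for Bst2, 2.66% for Oasl2, 4.54% for Usp18, 3.38% for Isg15 and 0.250% for Ifit3. The single WT 2 member carried 20 UMIs of Isg15, 11 of Bst2 and 2 each of Oasl2 and Rtp4, and the WT 1 member 12 of Isg15, 6 of Bst2, 2 of Usp18 and 1 of Ifit1. These 2 cells enter no test.

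Membership was graded rather than sharply separated. Of the members, 243 had 4 of the 7 genes, 183 had 5, 104 had 6 and 73 had all 7. In the KO and DeltaSP libraries the 241 cells with exactly 4 genes, just inside the rule, held a median of 12 UMIs of these genes, and the 346 cells with 3 genes, just outside, held a median of 6. The most frequent combination was Isg15, Oasl2, Rtp4, Usp18 and Bst2 without Ifit1 and Ifit3, in 99 members. The other interferon genes, those of 11 lists summed without the 7, reached 13493 CPM in cells of the edited libraries with all 7 genes and 5550 CPM in those with 4, against 4873 CPM with 3, 3266 CPM with 1 and 2855 CPM with none. Cells with none of the 7 in WT 2 stood at 2620 CPM. Members held 54.4% and 52.6% of all UMIs of the 7 genes among kept cells in the KO libraries and 78.1% and 70.4% in the DeltaSP libraries, so the rest lay in cells outside the rule.

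**Figure D2:**
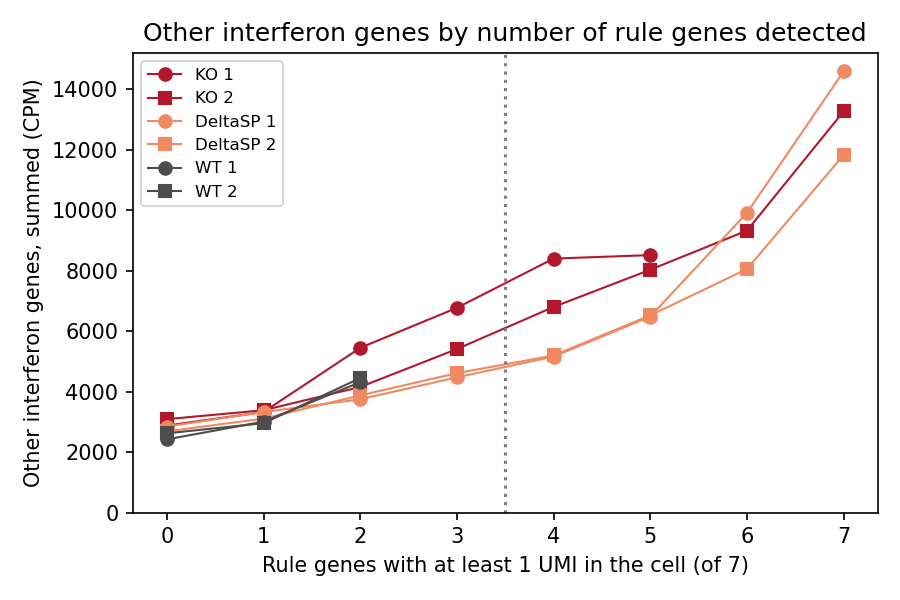
Summed CPM of interferon genes outside the rule against the number of rule genes detected in the cell, per library, for points resting on at least 5 cells; the dotted line marks the rule. The level climbs to 14581 CPM in DeltaSP 1 cells with all 7 genes, with no step at the line.

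Genes outside the rule were compared between members and the other cells of the same library, in the 4 edited libraries, with UMIs summed per library and library as a block in edgeR's quasi-likelihood test. Of 14469 genes, 988 were higher in members (6.83%) and 795 lower (5.49%) at a Benjamini-Hochberg adjusted p under 0.05. These genes were measured in the same cells that the 7 genes chose, so the tests describe how far the state reaches beyond the rule and are no independent support for it. Of 158 interferon genes tested outside the rule, 114 were higher and 0 lower, with a median log2 fold change of 2.28 against -0.02 over all genes. Without KO 2 the counts over all genes were 461 higher and 222 lower, and without DeltaSP 2 they were 478 and 288, whereas the interferon count stayed between 95 and 111 whichever library was left out.

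Members and other cells also differed in their mix of cell states, so the fit was repeated with the other cells weighted to the members' mix of clusters. The weighted sums were rounded and fitted as plain counts. In KO 1 the cluster led by Stra8, described below, held 48.4% of members and 2.72% of other cells, so few cells carried much weight. What this does to the weighted adjusted p-values was not tested. With weighted cells 137 genes were higher (0.963% of 14219) and 20 lower (0.141%). Of the 137, 121 were also higher without weighting (88.3% of the 137 and 12.2% of the 988), and 89 belonged to the interferon lists. Where a weighted log2 fold change is given below, it stands second or is called weighted.

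The chains of the type I receptor did not differ detectably. Ifnar1 was at 24.4, 28.6, 28.0 and 21.1 CPM in members of KO 1, KO 2, DeltaSP 1 and DeltaSP 2, against 25.8, 27.7, 26.3 and 20.6 CPM in the other cells. The members' values overlapped those of the other cells, the log2 fold change was 0.01 ± 0.10 (SE), and edgeR gave adjusted p = 0.976. Ifnar2 had a log2 fold change of 0.20 ± 0.12 with adjusted p = 0.286, which did not pass. Of 5 receptor genes tested, Ifngr1, a chain of the type II interferon receptor, and Il10rb, a chain shared with type III interferon and interleukin 10, passed at log2 fold changes of 0.52 and 1.17, and neither passed with weighted cells, at 0.19 and 0.31.

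Several signalling factors were higher in members. Irf7, the factor that amplifies interferon-alpha genes, was at 15.7 and 45.9 CPM in KO members and 52.8 and 46.4 CPM in DeltaSP members, against 0.610 and 2.44 CPM in other KO cells and 3.58 and 2.59 CPM in other DeltaSP cells. KO 1 was the lowest library in both sets. Irf7 gained 4.08 ± 0.15 on the log2 scale (adjusted p = 5.11e-08 in edgeR; 3.80 weighted). Irf9 rose by 1.73 (1.5 weighted), Stat2 by 1.66 (1.67 weighted) and Socs1, a feedback inhibitor of the receptor kinases, by 2.41 (1.54 weighted). In all 7 of 18 signalling genes passed upward in each fit, and none passed downward.

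Cytosolic sensors of foreign nucleic acid rose as well, 8 of 17 tested without weighting and 6 with it. Ddx58 (RIG-I), a sensor of viral RNA, was at 43.6, 41.2, 46.0 and 40.4 CPM in members of KO 1, KO 2, DeltaSP 1 and DeltaSP 2, against 2.47, 4.04, 4.61 and 4.36 CPM in the other cells. The members' values were close to each other across the 4 libraries. Its log2 fold change was 3.36 ± 0.15 with adjusted p = 2.5e-07 in edgeR (2.82 weighted). Ifih1 (MDA5), a second RNA sensor, rose by 3.83 ± 0.24 (2.84 weighted), Zbp1, a sensor of Z-form nucleic acid, by 3.64 ± 0.34 (3.54 weighted), and Trim25, a ubiquitin ligase acting on RIG-I, by 1.23 ± 0.09 (1.08 weighted).

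Antiviral effectors formed the broadest block, with 49 of 57 tested higher, 0 lower and a median log2 fold change of 3.07; with weighted cells 39 of 57 passed, with a median of 1.90. Rsad2 (viperin), which makes a chain-terminating nucleotide, was at 55.8 and 35.2 CPM in KO members and 73.8 and 51.7 CPM in DeltaSP members, against 0.407 and 0.534 CPM in other KO cells and 0.710 and 0.757 CPM in other DeltaSP cells. It gained 6.37 ± 0.18 on the log2 scale, with adjusted p = 1.43e-08 in edgeR (4.38 weighted). Xaf1, an interferon-induced partner of the apoptosis inhibitor XIAP, rose by 4.71 ± 0.20 (2.60 weighted), Ddx60, a helicase, by 4.27 ± 0.20 (3.69 weighted), Rnf213, a large ubiquitin ligase, by 3.64 ± 0.15 (3.45 weighted), and Ifi35 by 3.59 ± 0.14 (2.08 weighted). All 12 interferon-inducible GTPases tested were higher, with a median of 4.22, and 10 of 11 passed with weighted cells, with a median of 2.83. These proteins attack the vacuoles of intracellular microbes. Igtp stood at 82.0, 81.1, 95 and 89.8 CPM in members of KO 1, KO 2, DeltaSP 1 and DeltaSP 2, against 1.97, 4.31, 3.32 and 4.34 CPM in the other cells. It rose by 4.56 ± 0.15 (adjusted p = 2.71e-08 in edgeR; 2.97 weighted). Gbp3 rose by 5.05 ± 0.18 (3.59 weighted), Gbp2 by 4.38 ± 0.31 (1.57 weighted) and Gbp7 by 4.11 ± 0.16 (2.62 weighted). Irgm1 rose by 4.15 ± 0.13 (3.03 weighted) and Irgm2 by 4.17 ± 0.20 (2.83 weighted). Several of these genes belong to families of near-identical copies, so counts within a family are uncertain at the level of the single gene.

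Antigen presentation genes rose by smaller factors. Of 23 MHC class I genes and their loading machinery, 20 were higher, with a median log2 fold change of 1.96, and 17 of 22 with weighted cells, with a median of 1.17. B2m, whose promoter is shown above, was at 208, 150, 166 and 157 CPM in members of KO 1, KO 2, DeltaSP 1 and DeltaSP 2, against 35.5, 36.0, 36.6 and 39.0 CPM in the other cells and 24.9 and 23.6 CPM in WT. The other cells of the 4 libraries were nearly level, and every set of members lay far above them. B2m rose by 2.12 ± 0.09 (adjusted p = 1.21e-07 in edgeR; 1.35 weighted). Psmb8, a subunit of the immunoproteasome, rose by 4.13 ± 0.18 (1.83 weighted), Tapbp, which loads peptide, by 2.39 ± 0.13 (1.03 weighted) and H2-Q4 by 2.12 ± 0.13 (1.35 weighted). Of 4 MHC class II genes tested, 2 were higher and 0 lower, and 1 of 5 was higher with weighted cells. Cd74, the chaperone of MHC class II, was at 26.2, 13.3, 5.85 and 11.0 CPM in members, against 1.42, 1.17, 0.323 and 0.482 CPM in the other cells, and passed with a log2 fold change of 4.03 ± 0.30 (1.49 weighted). Of the membrane proteins that restrict viral entry, Ifitm3 rose by 2.58 ± 0.13 and Ifitm2 by 0.32 ± 0.07; with weighted cells Ifitm3 passed at 2.0 and Ifitm2 did not, at 0.03.

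Chemokines were higher too. Cxcl10, which draws activated T cells, was at 99.4, 337, 152 and 114 CPM in members of KO 1, KO 2, DeltaSP 1 and DeltaSP 2, against 7.05, 9.38, 22 and 17.6 CPM in the other cells. Its log2 fold change was 3.47 ± 0.35 (adjusted p = 0.000181 in edgeR; 3.73 weighted). KO 2 stood highest among members. Ccl2 and Ccl5 rose by 6.42 ± 0.56 and 3.99 ± 0.61 (5.28 and 4.62 weighted), from few UMIs, and without DeltaSP 2 Ccl5 no longer passed, with adjusted p = 0.0777. Of 15 NF-kB targets and chemokines tested, 10 were higher and 0 lower, and 5 with weighted cells.

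**Figure D3:**
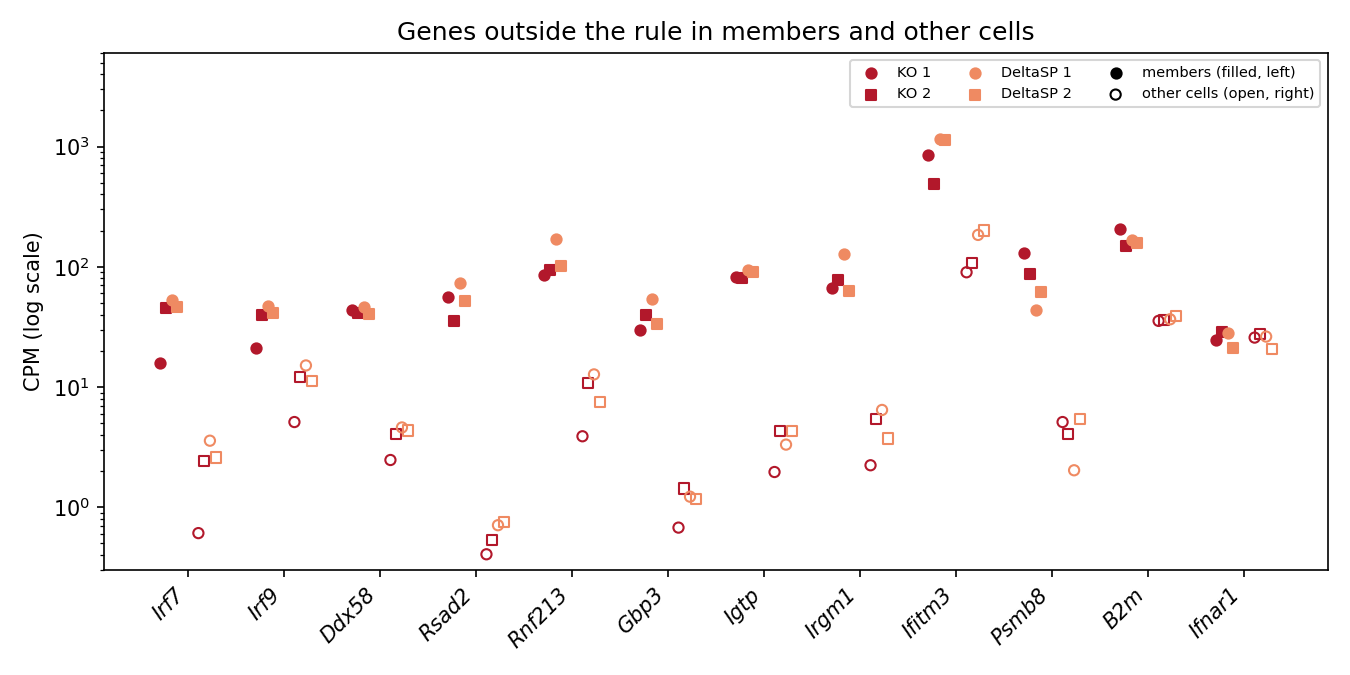
CPM on a log axis of 12 genes outside the rule, per edited library, with members as filled symbols at left and other cells as open symbols at right; KO is dark red and DeltaSP orange, circles are replicate 1 and squares replicate 2. The signalling, sensor, effector, GTPase and antigen presentation genes separate, and Ifnar1 overlaps.

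Transcripts of interferon itself were rare. Of 20 ligand genes in the count tables, 17 had no UMI in any member, where a count of 0 allows up to 0.498% of members with a UMI for a single gene. Ifna4 had 25 UMIs in 9 members and 6 UMIs in 5 other kept cells, Ifnb1 4 UMIs in 2 members and 1 UMI in 1 other cell, and a gene annotated as Ifnab 1 UMI in 1 member and 2 UMIs in 2 other cells. In all 11 members carried a ligand UMI (1.82%, exact 95% interval 0.914% to 3.24%), against 7 of 9513 other cells of the KO and DeltaSP libraries (0.0736%, 0.0296% to 0.152%) and 2 of the other WT cells. The intervals pool cells over libraries and cover counting error only. Cells are not replicates, and the shares were not tested. Interferon-alpha genes are near-identical copies, so the name Ifna4 is uncertain. The 11 members came from all 4 edited libraries. They held a median of 59 UMIs of the 7 genes, from 16 to 119, against a median of 21 over all members. Members of the cluster in which they lay, described next, had a median of 29. The 7 genes chose the cells, so these values are a description. Median depth was 10016 UMIs in the 11, against 16036 over all members.

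All 11 lay in 1 cluster, led by Cxcl10, Atf3, Junb and Egr1 and by integrated stress response and immediate early genes. The clusters had been made without the interferon lists, ligands included. Of the 55 members in it, 11 carried a ligand UMI (exact 95% interval 10.4% to 33.0%), against 0 of 548 members elsewhere, which allows up to 0.547%. Among other cells of the KO and DeltaSP libraries the shares were 3 of 1411 in that cluster (0.213%) and 4 of 8102 elsewhere (0.0494%). All but 1 of these 4 lay in the cluster led by Mnx1, Jun and Junb, also marked by integrated stress response and immediate early genes. That second cluster held only 374 other cells of these libraries and 8 members. Members of the Cxcl10 cluster had fewer UMIs than members elsewhere, with a median of 11560 against 16480. The cluster was singled out after these values were seen, its cells are not replicates, and no test was made. Members of the Cxcl10 cluster held Isg15 at 1739 CPM, against 36.1 CPM in its other KO and DeltaSP cells and 9.51 CPM in its WT cells. Isg15 is a gene of the rule, so selection sets this gap. Members of the cluster led by Mnx1 and Jun held it at 1241 CPM, and those of the Sfrp2 cluster at 435 CPM. Against members of the Sfrp2 cluster, Bst2 was lower (437 against 626 CPM) and Ifit1 higher (380 against 116 CPM).

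Defining genes of immune cells were mostly at 0 in the members. Of 12 macrophage genes, 8 had no UMI in any member, and the list summed to 1.41 to 15.7 CPM in members and 1.34 to 1.87 CPM in the other cells of the edited libraries. Of 12 T lymphocyte genes, 9 had none, among them Cd3d, Cd3e and Cd4. Thy1 had 3 UMIs, and Lck, a T cell kinase, had 63 UMIs in 60 members and 513 UMIs in 496 other cells. Lck passed with a log2 fold change of 0.89 and did not pass with weighted cells. Cd2, a T cell adhesion gene, had 494 UMIs in 123 members and 9526 UMIs in 2685 other cells, at 61.5 to 78.6 CPM in other cells of the edited libraries and at 0.246 and 0 CPM in WT 1 and WT 2. Of 6 plasmacytoid dendritic cell genes, 4 had none, and the other two, Irf8 and Tcf4, did not pass.

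The members were spread over most cell states of the cultures. Clusters were named only from marker lists, by a rule set after the clusters were seen. The cluster led by Stra8, Cyp26a1 and Dazl, pluripotent or germ cell-like, had the highest share: 83 of its 278 cells were members (29.9%). In it 15 of 72 cells of KO 1, 22 of 56 of KO 2, 8 of 14 of DeltaSP 1 and 37 of 119 of DeltaSP 2 were members, against 0 of 8 of WT 1 and 1 of 9 of WT 2. It held 48.4% and 26.5% of the members of the KO libraries and 3.25% and 15.4% of those of the DeltaSP libraries, although it made up 0.613% to 3.38% of the kept cells of these libraries. Non-member cells of the same cluster also carried rule genes, with Bst2 at 181 CPM and Isg15 at 73.1 CPM in the KO and DeltaSP libraries together and 166 and 128 CPM in its 17 WT cells. In its members Bst2 stood at 405 CPM and Isg15 at 413 CPM. Bst2 was detected in 78.2% of its other KO and DeltaSP cells and 58.8% of its WT cells. For Bst2 and Isg15 the step from other cell to member was in proportion smaller there than in the other clusters described here. That did not hold for every rule gene. Rtp4 went from 18.5 to 156 CPM there, and from 33.6 to 199 CPM in the cluster led by H19 and Tgfbi.

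Without this cluster the shares were 0.778% and 2.98% in KO, 10.5% and 5.86% in DeltaSP and 0.0223% and 0% in WT, so every edited library stayed above both WT libraries, both DeltaSP libraries stayed above both KO libraries, and the WT libraries changed places. The mesoderm-like cluster, led by H19, Tgfbi and Col3a1, had 60 members of 472 cells (12.7%), with 2.70% and 4.76% in the KO libraries and 27.8% and 19.5% in the DeltaSP libraries. The p3 or floor plate-like cluster, led by Vtn and Shh, had 94 of 1313 (7.16%), and the largest cluster, led by Sfrp2 and Nkx2-9, had 154 of 2810 (5.48%). Neurons held fewer. The motor neuron-like cluster, led by Cldn3, Cntn2 and Lhx4, had 45 of 1269 (3.55%), with 0 and 2 members in the KO libraries and 31 and 12 in the DeltaSP libraries. A neuronal cluster led by Sst and Prph had 30 of 1065 (2.82%), with 0 members in both KO libraries and 19 and 11 in the DeltaSP libraries. Of the 3 clusters with no member, each drew 88.2% to 96.8% of its cells from WT 1.

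**Figure D4:**
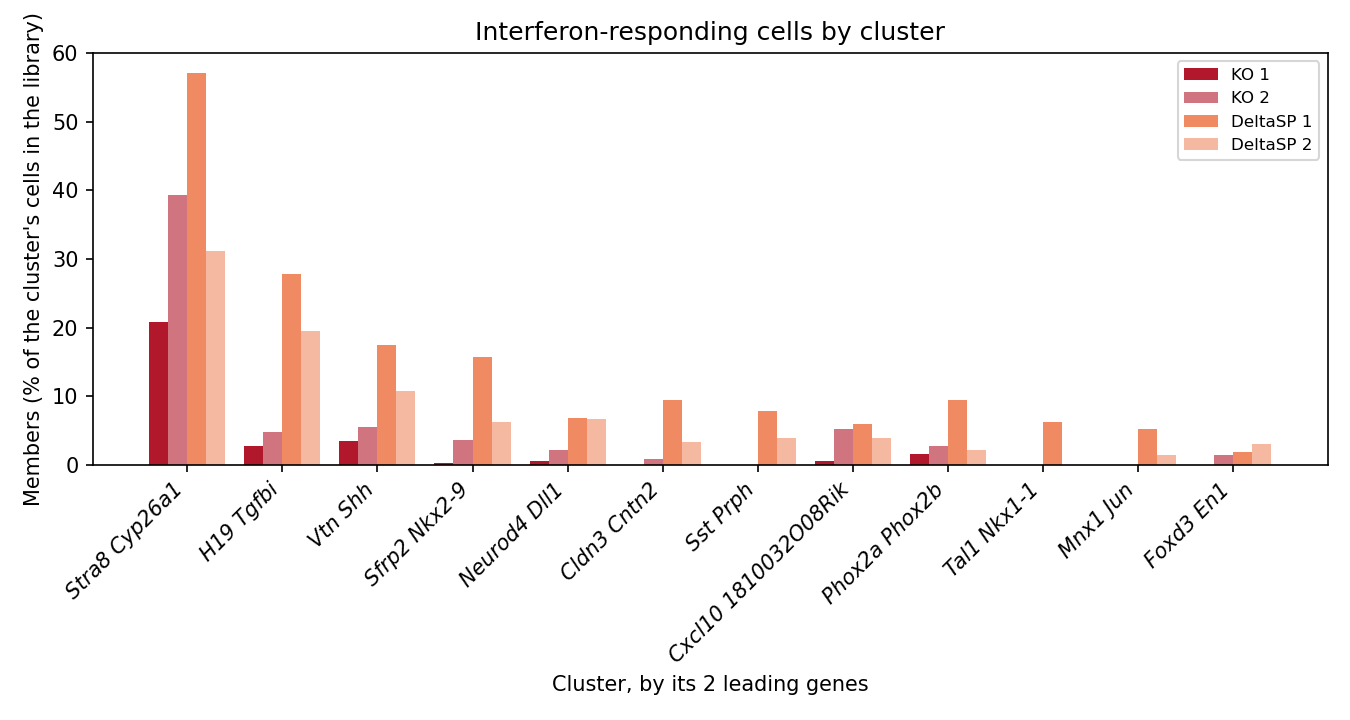
Members as percent of the cells of a cluster in each edited library, for clusters with any member, ordered by their share over all libraries and named by 2 leading genes; bars are drawn for at least 10 cells. The cluster led by Stra8 stands highest in every library, from 20.8% in KO 1 to 57.1% in DeltaSP 1, and several neuronal clusters have no KO member.

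Within the clusters described here, members again stood above other cells. In the cluster led by Sfrp2, members of the KO and DeltaSP libraries had Irf7 at 59.0 CPM, against 1.41 CPM in its other cells. In the motor neuron-like cluster members had Irf7 at 60.1 CPM, against 3.83 CPM. In the pluripotent or germ cell-like cluster Irf7 was at 17.2 CPM, against 7.05 CPM. Of these clusters, the last had the smallest gap.

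Genes of cell state differed more widely between members and other cells before weighting than after it. Pan-neuronal genes were lower, 17 of 17 with a median log2 fold change of -0.98, and their sum ran from 2395 to 7637 CPM in members, against 6638 to 9697 CPM in the other cells. With weighted cells the direction turned: 6 of 17 were higher, 0 lower and the median was 0.29. Stmn2, a tubulin-binding protein of growing axons, had a log2 fold change of -1.01 before weighting and 0.38 after it. Committing precursor genes were lower in 7 of 8 (2 of 8 weighted), among them Neurog2, the proneural factor of motor neurons, at -1.05 (-0.49 weighted, adjusted p = 0.000988 in edgeR), and Gadd45g at -1.20 (-0.40 weighted). G2 and M phase genes were higher in 17 of 24, with Cdk1 at 0.70 and Mki67 at 0.53, and in 0 of 24 with weighted cells. Pluripotent or germ cell genes were higher in 4 of 6 (Stra8, the retinoic acid-induced meiosis gene, at 3.10), and in 0 of 9 with weighted cells. Foxc2 of the mesoderm list rose by 1.69 and Shh of the floor plate by 0.71, and neither passed with weighted cells. Sox2, at 0.05 ± 0.12, did not pass, while without the cluster led by Stra8 and Dazl it was at 0.33 with adjusted p = 0.00436 in edgeR. With weighted cells Sox2 did not pass either, and neither did Isl1, Olig2 or Cartpt.

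In both fits 7 genes were lower in members. Cdkn1a (p21), the p53-induced brake on the cell cycle, was at 59.3, 82.4, 92.1 and 78.8 CPM in members of KO 1, KO 2, DeltaSP 1 and DeltaSP 2, against 125, 126, 138 and 129 CPM in the other cells. All member values lay below all others, with a log2 fold change of -0.74 ± 0.09 (adjusted p = 0.000775 in edgeR; -0.36 weighted, adjusted p = 0.00211). Ccng1, also a p53 target, fell by 0.37 (-0.28 weighted). Crabp1, a retinoic acid-binding protein, fell by 1.65 ± 0.24 and Rgs16, a regulator of G protein signalling, by 1.43 ± 0.19, and both also passed with weighted cells at -0.46 and -0.74. Of 15 p53 targets tested, 5 were lower and 0 higher, and 2 were lower with weighted cells. Among the 12 largest rises that passed, went the same way in every library and lay at a mean of at least 20 CPM in members, Tuba3b belongs to no interferon list; it was at 82.0 and 21.3 CPM in KO members and 0.403 and 1.84 CPM in DeltaSP members, and did not pass with weighted cells.

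**Figure D5:**
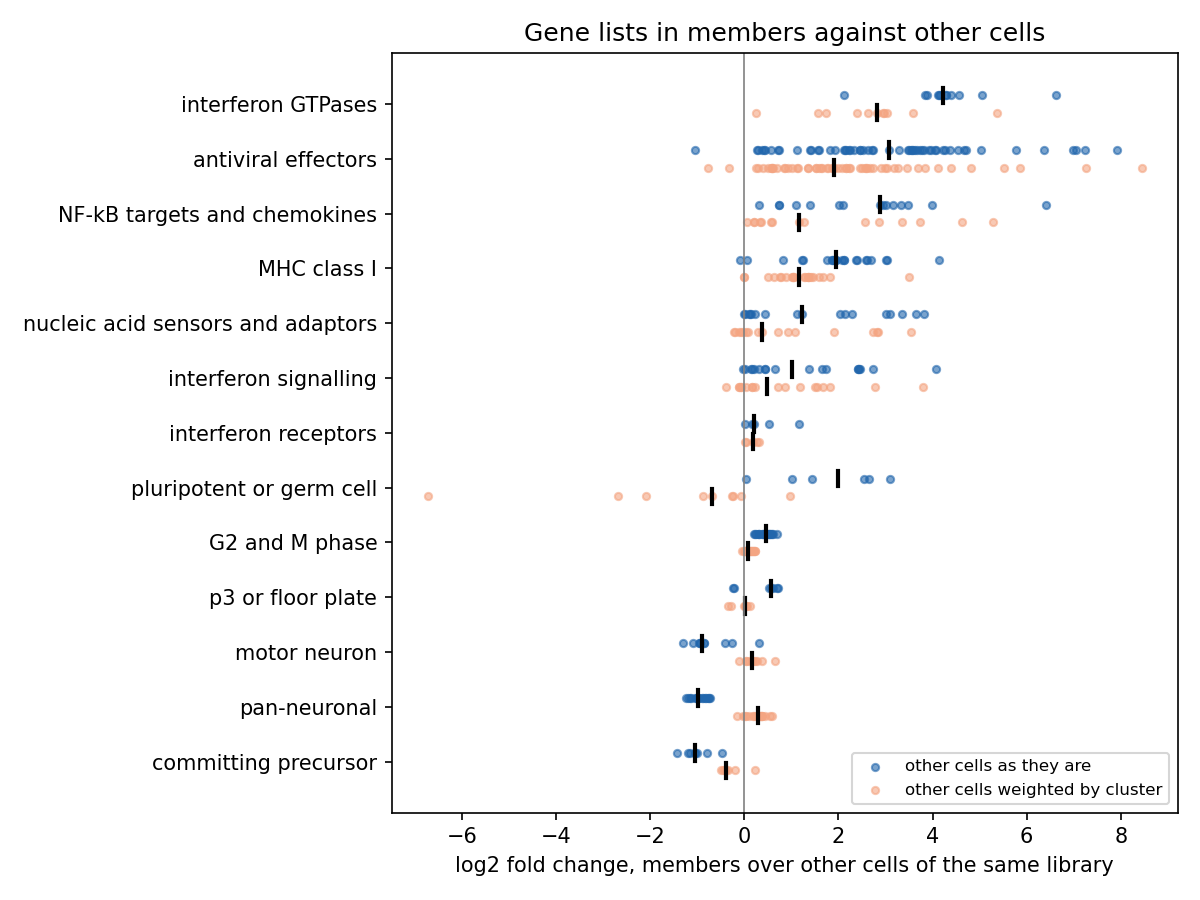
Log2 fold change of members over other cells of the same library for each tested gene of 13 lists, with other cells as they are (blue) or weighted to the members' clusters (orange); black ticks are medians. The medians of the interferon lists lie above 0 in both, and the pan-neuronal median is -0.98 with other cells as they are and 0.29 with weighted cells.

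KO and DeltaSP members were compared next. Of 11327 genes outside the rule, 2 were higher (0.0177%) and 12 lower (0.106%) in KO members at an edgeR adjusted p under 0.05. In members the transcript 5330434G04Rik, the long non-coding RNA of the edited locus, had 0 UMIs in both KO libraries, against 19.2 and 15.9 CPM in DeltaSP 1 and DeltaSP 2; in the other cells it was at 0.136 and 0.200 CPM in KO, 24.1 and 22.9 in DeltaSP and 32.5 and 33.6 in WT. Of 126 interferon genes tested, 1 was higher and 0 lower, with a median log2 fold change of 0.09 against 0.01 over all genes. The 126 include NF-kB targets and chemokines, the only interferon list with a passing gene. That gene was Nfkbia, the inhibitor of NF-kB, at 159 and 173 CPM in KO members and 41.5 and 51.2 CPM in DeltaSP members, a log2 fold change of 1.69 (adjusted p = 0.0445 in edgeR), while the other cells held 36.3 and 40.3 CPM in KO and 39.7 and 34.5 CPM in DeltaSP. The lower genes included the motor neuron factors Isl1 at -2.66, Mnx1 at -2.87 and Lhx4 at -2.95, the neuropeptide Sst at -5.42 and Cd2 at -2.65. KO members also held few cells of the motor neuron-like cluster led by Cldn3 and Cntn2 (0 and 2, against 31 and 12 in the DeltaSP libraries). Motor neuron genes also marked the clusters led by Sst and Prph and by Mnx1 and Jun. Both KO libraries had 0 members in each, against 19 and 11 and against 6 and 2 in the DeltaSP libraries. The part of this mix in these values was not tested. Without the cluster led by Stra8 and Dazl 5 genes passed, and leaving out KO 1, KO 2, DeltaSP 1 or DeltaSP 2 gave 130, 91, 235 and 387, with the lone library of a genotype assumed to vary like the other genotype's. The change from other cells to members itself differed between the genotypes for 44 genes upward (0.304% of 14469) and 113 downward (0.781%) in KO, by an interaction term in edgeR. With the replicate number as a block 6 genes passed between KO and DeltaSP members; those that lost the call include Nfkbia and Cd2 (adjusted p = 0.0632 each in edgeR), Lhx4 (0.0639) and 5330434G04Rik (0.0820). Without the cluster led by Stra8 and Dazl, Isl1 (adjusted p = 0.0502), Cd2 (0.0881) and 5330434G04Rik (0.108) no longer passed in edgeR, and by DESeq2 Sst did not (0.0779).

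The other cells, those outside the rule, were compared by genotype to see whether the response stopped at the rule. These fits were not weighted by cluster, and WT 1 had its own mix of clusters. In KO against WT, 19 of 126 interferon genes tested outside the rule were higher and 0 lower, where 2.16% of all 14755 genes were higher and 3.98% lower. Their median log2 fold change was 0.63, against 0.00 over all genes. Zc3hav1, an antiviral zinc finger protein, was at 8.34 and 12.5 CPM in KO 1 and KO 2, against 2.31 and 2.89 CPM in WT 1 and WT 2, and rose by 1.74 ± 0.24 (adjusted p = 0.0254 in edgeR). Trim25 was at 17.2 and 34.5 CPM, against 5.91 and 6.44 CPM, a rise of 1.80 ± 0.31. Igtp rose by 2.74 ± 0.52, Ifi27 by 2.78 ± 0.39 and H2-Q4 by 1.17 ± 0.22. Irf7 had a log2 fold change of 2.58 and did not pass. Without WT 1 or without KO 2 the count of 19 fell to 0, and without KO 1 to 2; in cells with none of the 7 genes it was 6.

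In DeltaSP against WT the same 126 genes had a median of 0.53, 103 of them above 0, and 0 passed in edgeR, where 1 gene of all 14755 was higher (0.00678%) and 1 lower (0.00678%), and 2261 genes of the whole fit had an unadjusted p under 0.05. DESeq2's Wald test called 30 of the 126 higher and 0 lower. Zc3hav1 was at 12.6 and 10.4 CPM in DeltaSP, and Trim25 at 38.1 and 27.1 CPM, each above both WT libraries. Irf7 stood at 3.58 and 2.59 CPM, against 0.197 and 0.222 CPM in WT, a log2 fold change of 3.73 (adjusted p = 0.164 in edgeR). KO against DeltaSP gave 0 of the 126 in either direction by edgeR and 0 higher and 2 lower by DESeq2, with 797 genes of the whole fit at an unadjusted p under 0.05. The 3 comparisons share libraries. In these cells the 7 genes are bounded from above by the rule, so their own values are a description: Rtp4 was at 1.93 and 10.9 CPM in other KO cells and 17.1 and 12 CPM in other DeltaSP cells, against 0.295 and 0.407 CPM in WT. Free RNA from the members can add UMIs to such cells, and its part in these values was not tested.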

How the data were processed

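For each of the 6 libraries the deposited matrix gives untransformed UMI counts; the authors used Cell Ranger 4.0 and the mm10 genome, per the submitters' processing notes. Every deposited barcode had 500 UMIs or more. Library totals lay between 24191242 and 49061693 UMIs. Members and gene lists (35) were chosen with earlier results of these data known.

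Counts were summed per library over members or other cells and tested by quasi-likelihood in edgeR 4.0.16 under R 4.3.3, after filterByExpr and TMM scaling, with p adjusted by Benjamini-Hochberg and a threshold of 0.05; library was a block for members against other cells, and genotype the term otherwise. CPM are plain. p-values measure the spread between libraries. Clusters came from scanpy 1.11.5 and leidenalg 0.10.2 at resolution 0.6, without interferon lists among the variable genes and without integration. Alternatives included DESeq2 1.42.0. Simulated counts were run for members against other cells, for other cells of KO against WT, and for members of KO against DeltaSP. The fit with weighted cells was not simulated. Library pairs shared 0 to 6 kept barcodes. The naming rule took the 12 strongest passing genes each way at a mean of 20 CPM or more, 4 per list by smallest p, and a fixed set, of which those in a described group are given; the ligand cells and their cluster were singled out after their values were seen. Replicate numbers did not pair the libraries (correlations of -0.16 to 0.13). Sequences are RefSeq windows. Results for 1 gene of the naming rule are not reported here.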

Additional observations from a re-analysis of the deposited data

Results flagged for a closer look

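The change from other cells to members differed between KO and DeltaSP for 157 genes, by an interaction term in edgeR with library as a block at an adjusted p under 0.05 (44 higher and 113 lower in KO; 0.304% and 0.781% of 14469). Motor neuron factors fell further in KO members: the difference was -2.56 for Isl1, -2.89 for Mnx1 and -3.12 for Lhx4 on the log2 scale, and -3.92 for Sst, -2.69 for Cd2 and -1.22 for Tubb3. It was positive for Nfkbia at 1.74, Cxcl10 at 1.96, Mt1, a metallothionein, at 1.95 and Epcam, an epithelial adhesion gene, at 2.16. Of 158 interferon genes tested, 4 were among them, all higher in KO: 2 MHC class I genes and 2 NF-kB targets and chemokines. With other cells weighted by cluster 54 genes passed; Sst at -0.41, Epcam at 0.61 and Tubb3 at 0.15 did not. Without the cluster led by Stra8 and Dazl Mt1, at 0.51, did not pass.

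Barcodes left out by the cell filters held a signal as well. Of the left-out barcodes, 0.542% in KO 1, 0.214% in KO 2, 1.60% in DeltaSP 1 and 0.593% in DeltaSP 2 had 4 or more of the 7 genes, against 0.0413% in WT 1 and 0% in WT 2. Of these 21 barcodes in the KO and DeltaSP libraries, 5 carried an interferon ligand UMI. Over all 2595 left-out barcodes of these libraries, 12 carried one. The 5 barcodes had 13.9% to 17.1% mitochondrial UMIs, above the limit of 10%.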

How the results depend on the processing

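Shares by genotype kept their direction under every setting run. With 3 or more of the 7 genes KO minus WT was 4.96 points and DeltaSP minus WT 12.97; DeltaSP minus WT was 5.29 with 5 or more genes, 5.62 without Bst2 and 2.87 thinned; thinned, KO minus WT was 0.671 and KO minus DeltaSP -2.20. Leaving out each library gave 1.41 to 3.91, 6.65 to 10.7 and -8.07 to -3.99 points.

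Members against other cells: weighting by cluster gave 137 genes higher and 20 lower, no filter on low counts 1239 lower, and leaving out libraries 461 to 907 higher and 222 to 889 lower; a minimum of 5 or 30 members chose the same libraries. Interferon genes higher in members numbered 89 to 122 over all settings. With weighted cells Stra8 (-0.25), Dazl (-0.68), Stmn2 (0.38), Tubb3 (0.25) and Sox2 (-0.033) turned direction, and the KO minus DeltaSP difference of Tubb3 became 0.15. Sox2 was -0.13 without DeltaSP 1 and passed at 0.33 without the Stra8 and Dazl cluster. Ifnar1, near 0 throughout, was -0.021 without a filter, -0.016 without the Stra8 and Dazl cluster, and -0.035 to 0.030 leaving out libraries, with -0.0028 without DeltaSP 2. The interaction gave 389 genes without a filter, 54 weighted, 79 without the Stra8 and Dazl cluster and 82 to 671 leaving out libraries.

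KO against DeltaSP members: 849 genes without a filter, 6 with the replicate block, 5 without the Stra8 and Dazl cluster, 135 by DESeq2 and 91 to 387 leaving out libraries. The members' replicate numbers correlated at -0.16; a crossed replicate block gave 531.

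Other cells, KO against WT: 906 genes, 3259 without a filter, 2185 by DESeq2, 963 with the replicate block and 4 to 2980 leaving out libraries. DeltaSP against WT gave 2, then 1215, 442, 3 and 1 to 681; KO against DeltaSP gave 1, then 463, 42, 1 and 1 to 4. Interferon genes higher in KO numbered 53 without a filter, 6 in cells with none of the 7 genes, 43 by DESeq2, 18 with the block and 0 to 20 leaving out libraries. The causes of these changes were not tested. Precision is limited by 2 libraries per genotype and by 31 members in KO 1. The settings without the Stra8 and Dazl cluster, those of the interaction and the crossed block were chosen after seeing the data.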
